A study of Mus musculus with 24 samples.

Results

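The 9 choroid plexus transcripts Ttr, Folr1, Kl, Clic6, Enpp2, Aqp1, Otx2, Slc4a5 and Prlr were followed through 24 brain libraries. They were taken by symbol as 9 of the 47643 symbols of the expression table, and all 9 had a row. The brains came from male C57BL/6J mice aged 4 months. Tumour mice had been injected with LLC cells and were sampled at 3 weeks, and control mice had a mock injection. LLC is the usual short name of Lewis lung carcinoma, a mouse tumour line; the labels do not spell it out, the series title speaks of melanoma, and the place of injection is not given in them. The 6 groups were LLC and control neocortex, LLC and control cerebellum, and LLC and control hippocampus, each with 4 libraries of bulk RNA. Libraries are named by group and number, LLC 1 to LLC 4 and control 14 to control 17. The labels call them biological replicates without saying which libraries share an animal, so p-values measure the spread between these libraries.

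The choroid plexus is a sheet of secretory epithelium around a vascular core that hangs into the ventricles of the brain and makes most of the cerebrospinal fluid. It lies beside the hippocampus in the lateral ventricle and under the cerebellum in the fourth ventricle, and is no part of neocortex, hippocampus or cerebellum tissue, so a dissected block can hold more or less of it. Its cells carry thyroid hormone on transthyretin, bring folate into the fluid, move water, bicarbonate and ions, and answer hormones from the blood, among them prolactin.

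The 9 genes fall into 4 roles. Ttr (transthyretin, the thyroid hormone and retinol carrier of the fluid), Folr1 (the folate receptor that takes folate across the epithelium) and Enpp2 (autotaxin, a secreted enzyme that makes lysophosphatidic acid) supply the fluid. Aqp1 (the water channel of the apical membrane), Slc4a5 (a sodium bicarbonate cotransporter) and Clic6 (a chloride intracellular channel family protein) belong to water and ion transport. Kl (klotho, the co-receptor for FGF23) and Prlr (the prolactin receptor) stand at the hormone side, and Otx2 is a transcription factor that the epithelium needs to form and persist. Enpp2 is also made by oligodendrocytes and Kl by some neurons, so these genes have sources outside the plexus.

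Prlr was the 1 member whose LLC and control libraries separated in any region, and the regions before 2 of its starts are shown for that reason. The gene lies on chromosome 15 from 10177238 to 10349180 on the plus strand (mm10, GENCODE M21), and RefSeq on GRCm38.p6 lists 3 starts for it. The 250 bases before a start were searched on both strands for TTCNNNGAA, the palindromic site bound by STAT factors, which carry the prolactin signal into the nucleus. The window before the start farthest upstream (chr15:10176988-10177237) held no match, and that before an internal start (chr15:10223656-10223905) held 1, in capitals, which begins at position -110 counted from the start. The window before the start farthest downstream (chr15:10293401-10293650) held none and is not printed.
Prlr upstream start: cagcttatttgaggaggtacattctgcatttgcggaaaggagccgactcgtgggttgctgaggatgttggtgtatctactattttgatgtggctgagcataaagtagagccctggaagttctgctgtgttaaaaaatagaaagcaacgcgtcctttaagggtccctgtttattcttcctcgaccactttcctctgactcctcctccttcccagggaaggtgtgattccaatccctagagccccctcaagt
Prlr internal start: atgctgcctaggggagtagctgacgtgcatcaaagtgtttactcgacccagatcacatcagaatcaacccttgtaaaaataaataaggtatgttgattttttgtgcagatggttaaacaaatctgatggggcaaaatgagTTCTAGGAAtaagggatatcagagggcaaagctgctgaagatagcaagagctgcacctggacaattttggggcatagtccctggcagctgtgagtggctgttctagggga
Starts were found in that table for 5 of the 9 members (Kl, Aqp1, Otx2, Slc4a5 and Prlr), with 10 windows in all. TTCNNNGAA was present in 2 of the 10 windows and in 7.02% of all 32851 windows of this length. TAATCC, the core letters bound by OTX factors, was present in 1 of the 10 and in 6.25% of all, counted on both strands. The table of values holds 1 level per gene, so the start in use could not be read from it.

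Values are TPM, which divide by transcript length and by the library total and keep no number of reads; the depth is therefore unknown, and values of 1 or 2 TPM carry an error that cannot be computed from them. Each library had 14368 to 14847 genes at 1 TPM or more, and 0 of the 276 library pairs were identical. Libraries followed their region labels: Gabra6, which granule cells of the cerebellum express, had 455 to 986 TPM there and 0.403 TPM or less in other regions. The members were set beside 25 other genes of this epithelium. That list was chosen with earlier results of these data known, so it is no independent check of the label. Of these, 21 followed Ttr from library to library with a Pearson correlation of at least 0.9, over the 24 libraries, after the mean of each group was subtracted from log2(TPM + 1). As a description over libraries that share regions, the 10 genes most like Ttr among 15573 were Mfrp (r = 0.985), 1500015O10Rik, Kcne2, Cldn2, F5, Kcnj13, Steap1, Tmem72, Slc2a12 and Prr32 (r = 0.967), and all 10 were on that list. Without the hippocampus (16 libraries) the closest 10 had r of 0.996 for 1500015O10Rik down to 0.937 for Steap1, and Krt18 (r = 0.956), a keratin of simple epithelia, was the 1 gene not on the list. Over the 24 libraries members followed Ttr with r between 0.892 for Kl, which ranked 65 among 15572 other genes, and 0.983 for Aqp1. Without the hippocampus r lay between 0.907 for Prlr and 0.972 for Slc4a5.

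In the hippocampus, choroid plexus transcripts differed between single libraries by far more than between LLC and control mice. Ttr had 42.8, 7289.6, 39.3 and 103 TPM in LLC replicates 1 to 4, against 2506, 86.2, 38.4 and 3968 TPM in control replicates 14 to 17. The 3 libraries LLC 2, control 17 and control 14 held 2506 TPM or more and the other 5 at most 103. These were also the highest 3 of the region for all 9 members and for 24 of the 25 other choroid plexus genes. LLC 2 was the highest for 8 of the 9 members, and control 17 for Prlr. In bulk RNA, fewer cells of a type and less RNA per cell cannot be told apart.

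The carriers and secreted products other than Ttr had the same 3 libraries highest. Folr1 had 0.613, 25.4, 0.655 and 1.53 TPM in LLC 1 to 4, against 9.41, 0.991, 0.894 and 18.7 TPM in control 14 to 17. Enpp2 had 81.0, 953, 92.0 and 186 TPM in LLC hippocampus, against 480.3, 140.5, 149.9 and 819.8 TPM in control hippocampus. The 5 libraries with little Ttr kept 81.0 to 186 TPM of Enpp2, so that Ttr made up 18.9% to 35.5% of the summed TPM of the 9 genes there and 81.0% to 86.8% in the other 3. The sum of the 9 genes took 0.0141%, 0.840%, 0.0147% and 0.0309% of all TPM in LLC 1 to 4, against 0.305%, 0.0243%, 0.0204% and 0.490% in control 14 to 17.

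The transporters behaved alike. Slc4a5 had 0.121, 16.04, 0.210 and 0.252 TPM in LLC hippocampus, against 4.84, 0.196, 0.189 and 8.22 TPM in control hippocampus, a range of 132-fold within the LLC group. Aqp1 had 0.696, 24.2, 0.819 and 1.17 TPM in LLC 1 to 4, against 8.70, 0.569, 0.726 and 14.7 TPM in control 14 to 17. Both stayed at or under 1.17 TPM outside LLC 2, control 14 and control 17. Clic6 had 4.35, 48.8, 4.52 and 5.52 TPM in LLC hippocampus, against 16.7, 5.02, 3.45 and 29.8 TPM in control hippocampus, and so kept a few TPM in every library.

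Among the hormone receptors and Otx2, Kl alone kept several TPM in every library, at 7.09 TPM or more. Prlr and Otx2 stayed at or under 1.60 TPM outside LLC 2, control 14 and control 17. Kl had 10.1, 28.8, 7.39 and 8.86 TPM in LLC hippocampus, against 16.3, 7.15, 7.09 and 26.2 TPM in control hippocampus. Its range within the LLC group was 3.89-fold, the smallest of the 9 there. Otx2 had 0.870, 11.2, 0.570 and 1.504 TPM in LLC 1 to 4, against 4.43, 1.22, 1.25 and 8.39 TPM in control 14 to 17. Prlr had 0.950, 5.07, 1.30 and 1.04 TPM in LLC hippocampus, against 3.97, 1.05, 1.60 and 5.78 TPM in control hippocampus. LLC and control values overlapped for all 9 members, where 8.95% of the 14650 genes tested lay wholly above in LLC hippocampus and 4.81% wholly below.

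**Figure D1:**
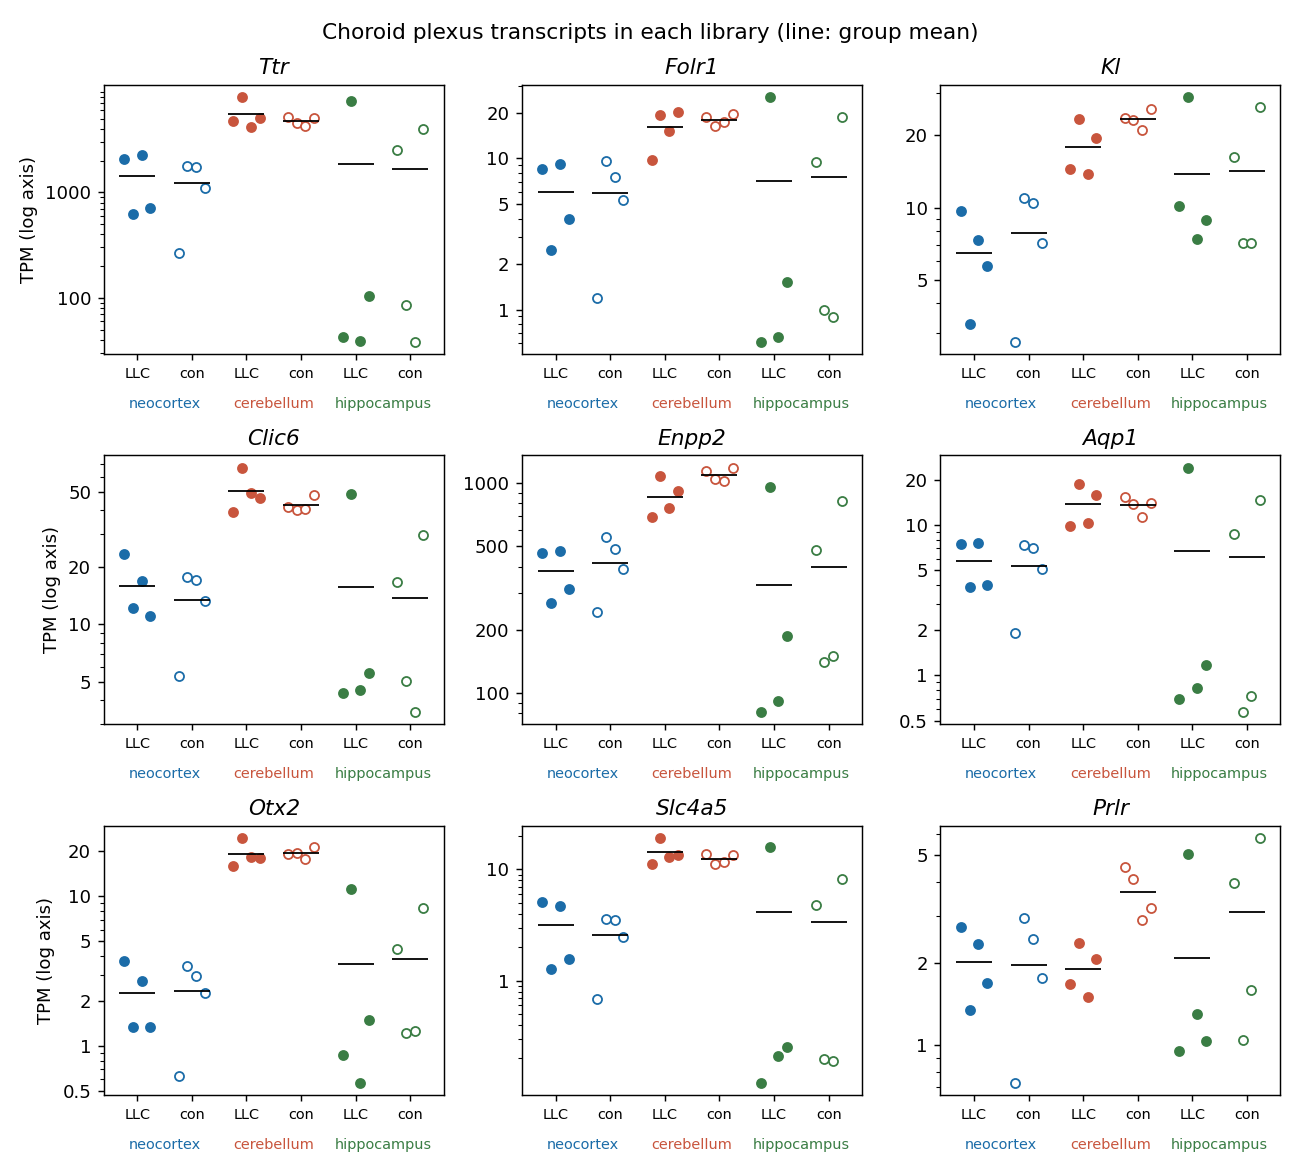
TPM of each of the 9 transcripts (log axis) in the 24 libraries; filled points are LLC libraries 1 to 4 and open points control libraries 14 to 17, each from left to right, and lines are group means. Hippocampal libraries LLC 2, control 14 and control 17 lie far above the other 5 for Ttr, while cerebellar libraries stay within 4155 to 7979 TPM.

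Each region was tested with limma on log2(TPM + 1), with Benjamini-Hochberg adjustment over all genes at a mean of at least 1 TPM; fold changes are differences on that scale and understate those of low genes. In the hippocampus 529 genes were called at an adjusted p under 0.05 (3.61% of those tested, 2.58% higher and 1.03% lower; 71.5% of them higher, and 58.4% after median-ratio scaling), and limma called 0 of the 9 members, with 0 at an unadjusted p under 0.05 as well. The differences were negative for all 9, with a median of -0.37 beside 0.01 over all genes tested. Without control 17 those of Folr1, Kl, Clic6, Aqp1, Otx2 and Slc4a5 were positive (0.04 to 0.34), and those of Kl and Clic6 also without LLC 1, LLC 3, LLC 4 or control 14 (0.03 to 0.16), with Aqp1 at 0.04, 0.01 and 0.05 without LLC 1, LLC 3 or control 14. None could be told from 0 at this spread: the LLC minus control difference of Ttr was -1.17 ± 1.90 (SE, adjusted p = 0.766), that of Enpp2 -0.66 ± 0.80 (adjusted p = 0.678) and that of Kl -0.04 ± 0.47 (adjusted p = 0.967). Means were 1869 ± 3614 TPM of Ttr in LLC hippocampus and 1649.5 ± 1928 TPM in control hippocampus (SD, 4 libraries per group), the opposite order to the difference on the log2 scale. The spread within a group, as the SD of log2(TPM + 1), had a median over the members of 1.63 in LLC and 1.31 in control hippocampus, against 0.111 and 0.0883 over all genes of these groups.

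Markers of neighbouring tissue were read beside these values. The summed TPM of 12 ependymal genes lay between 43.2 and 86.1 in LLC hippocampus and between 65.7 and 95.4 in control hippocampus, and its highest library was LLC 2 in the LLC group and control 17 in the control group. Thalamus and habenula genes summed to 45.9 to 64.9 TPM in LLC and 49.4 to 67.4 TPM in control hippocampus, and 15 meningeal fibroblast genes to 159 to 348 TPM in LLC and 246 to 359 TPM in control hippocampus. Genes of the pineal gland and pituitary stayed at 2.39 to 3.80 TPM in LLC and 2.31 to 6.16 TPM in control hippocampus, with Cga at 0 in all 4 LLC libraries and Asmt, Cga and Crx at 0 in all 4 control libraries. Erythrocyte genes summed to 3121 to 10833 TPM in LLC and 1266 to 1662 TPM in control hippocampus. LLC 4, a library with little Ttr, had 76.8 TPM of ependymal genes. Thalamus and habenula genes were highest in LLC 3 of the LLC group and control 16 of the control group. Meningeal genes were highest in LLC 2 and control 15, and pineal and pituitary genes in LLC 1 and control 15. Erythrocyte genes were highest in LLC 3 and control 17. The part of these tissues in the hippocampal differences was not tested.

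Neocortex libraries varied less. Ttr had 2061, 625, 2261 and 714 TPM in LLC replicates 1 to 4, against 265, 1774, 1728 and 1101 TPM in control replicates 14 to 17. Control 14 was the lowest library of the region for all 9 members and 21 of the 25 other choroid plexus genes. Control 14 and LLC 2 were the lowest pair for 8 of the 9. Folr1 had 8.51, 2.47, 9.16 and 4.00 TPM in LLC neocortex, against 1.19, 9.54, 7.57 and 5.28 TPM in control neocortex. Enpp2 had 467, 269, 473 and 313 TPM in LLC neocortex, against 243, 553, 487 and 388 TPM in control neocortex. The groups overlapped for these genes and for the other 6, where 10.9% of all genes tested lay wholly above in LLC neocortex and 6.18% wholly below.

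In the other members control 14 was again lowest. Clic6 had 23.5, 12.3, 16.8 and 11.1 TPM in LLC 1 to 4, against 5.36, 17.8, 17.2 and 13.3 TPM in control 14 to 17. Slc4a5 had 5.09, 1.27, 4.69 and 1.57 TPM in LLC neocortex, against 0.683, 3.57, 3.50 and 2.47 TPM in control neocortex. In both, control 14 was lowest and LLC 1 highest. Kl had 9.66, 3.27, 7.34 and 5.73 TPM in LLC neocortex, against 2.77, 10.9, 10.5 and 7.11 TPM in control neocortex. Prlr had 2.72, 1.35, 2.35 and 1.70 TPM in LLC neocortex, against 0.729, 2.93, 2.45 and 1.76 TPM in control neocortex. Aqp1 ranged over 3.91 to 7.59 TPM in LLC and 1.90 to 7.35 TPM in control neocortex, and Otx2 over 1.33 to 3.72 TPM in LLC and 0.631 to 3.44 TPM in control neocortex.

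Of the 14485 genes tested in neocortex 1237 were called (8.54%, 5.59% higher and 2.95% lower; 65.4% of them higher, and 51.4% after median-ratio scaling), and limma called 0 of the 9 members, 0 also at an unadjusted p under 0.05. Differences were positive for 7 and negative for 2, with a median of 0.11 beside 0.01 over all genes. Ttr differed by 0.30 ± 0.62 (SE, adjusted p = 0.782), Clic6 by 0.29 ± 0.33 (adjusted p = 0.591) and Prlr by 0.07 ± 0.24 (adjusted p = 0.865). Without control 14 the difference of Ttr was -0.32, that of Folr1 -0.37 instead of 0.11, that of Clic6 -0.06, that of Aqp1 -0.19 instead of 0.15, that of Otx2 -0.30 instead of 0.01, that of Slc4a5 -0.14 instead of 0.19 and that of Prlr -0.17. The direction of these 7 members therefore rested on that library. Leaving out LLC 1 also turned Folr1 (-0.08), Otx2 (-0.19), Slc4a5 (-0.04) and Prlr (-0.03), leaving out LLC 3 turned Folr1 (-0.12), Otx2 (-0.07), Slc4a5 (-0.01) and, at -0.000842, Ttr, and leaving out LLC 2 or control 15 turned Kl (0.07 and 0.01) and Enpp2 (0.04 and 0.04). LLC libraries of the neocortex held fewer transcripts of mature oligodendrocytes (5 of 12 genes fell), a source of Enpp2 outside the plexus; its part in the Enpp2 values was not tested.

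The cerebellum was the region where every library held much choroid plexus RNA. Ttr had 4725, 7979, 4155 and 5045 TPM in LLC replicates 1 to 4, against 5144, 4509, 4268 and 5043 TPM in control replicates 14 to 17. LLC 2 was the highest LLC library for 8 of the 9 members, and the LLC and control values of Ttr overlapped. With these even levels the spread was far smaller: the SD of log2(TPM + 1) had a median over the members of 0.319 in LLC and 0.120 in control cerebellum. Against all genes of the groups (0.169 in LLC and 0.0823 in control cerebellum) it remained the larger.

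Prlr fell in the cerebellum of LLC mice. It had 1.68, 2.37, 1.51 and 2.07 TPM in LLC cerebellum, against 4.52, 4.07, 2.90 and 3.19 TPM in control cerebellum. All 4 LLC libraries lay below all 4 control libraries, which was so for 1 of the 9 members and for 10.3% of the 14624 genes tested (wholly above in LLC: 6.42%). The mean of the LLC libraries was 1.91 ± 0.387 TPM and that of the controls 3.67 ± 0.756 TPM (SD, n = 4 in each group). The difference was -0.68 ± 0.14 (SE, adjusted p = 0.0458, limma), just inside the threshold, and 366 genes were called in this region (2.50% of those tested, 1.27% lower and 1.23% higher). The call was lost without any one of LLC 2 (adjusted p = 0.0778), LLC 3 (0.0942), control 14 (0.0969), control 15 (0.160), control 16 (0.104) or control 17 (0.0914), and held without LLC 1 (0.0335) or LLC 4 (0.0306), while the difference stayed between -0.76 and -0.59. It was also lost with no filter on low values (adjusted p = 0.0774), with all 24 libraries in 1 fit (0.162) and with the other choroid plexus genes as a covariate (-0.59 ± 0.14, adjusted p = 0.0920).

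Whether Prlr changed differently in the other regions was tested in 1 fit of all libraries. That fit shares 1 estimate of the spread, so the wide hippocampal spread also enters the error of cerebellum minus neocortex. The SD of log2(TPM + 1) of Prlr was 0.775 in LLC and 0.802 in control hippocampus. It was 0.191 and 0.234 in cerebellum, and 0.299 and 0.521 in neocortex. A missing call is therefore no sign that the regions changed alike. The LLC difference in cerebellum minus that in neocortex was -0.75 ± 0.49 (SE, adjusted p = 0.546), with 89 of 13783 genes called (0.646%; 12.4% of them positive, and 25.6% after median-ratio scaling). The LLC difference in hippocampus minus that in cerebellum was 0.26 ± 0.49 (adjusted p = 0.865, 13 of 13884 genes called, 0.0936%, of them 53.8% positive, and 42.9% after median-ratio scaling), and in hippocampus minus neocortex -0.50 ± 0.49 (adjusted p = 1.00, 0 of 14152 called). Limma called 0 of the 9 members in any of these comparisons, and 0 at an unadjusted p under 0.05.

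Enpp2 and Kl were lower on average in LLC cerebellum without passing the test. Enpp2 had 689, 1077, 757 and 917 TPM in LLC 1 to 4, against 1144.5, 1041, 1019 and 1184 TPM in control 14 to 17. Its difference was -0.37 ± 0.13 (SE, adjusted p = 0.126), and LLC 2 alone reached the control range. Kl had 14.5, 23.4, 13.8 and 19.6 TPM in LLC cerebellum, against 23.6, 23.1, 20.98 and 25.7 TPM in control cerebellum. The difference of Kl was -0.40 ± 0.15 (adjusted p = 0.152), again with LLC 2 alone among the controls. Prlr, Enpp2 and Kl were the 3 of 9 members at an unadjusted p under 0.05 in this region, where 24.4% of all genes were.

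The other 6 members had smaller differences that did not pass the test, positive for 3 and negative for 3. Clic6 had 39.1, 67.1, 49.4 and 46.3 TPM in LLC cerebellum, against 41.6, 40.2, 40.4 and 48.2 TPM in control cerebellum, a difference of 0.21 ± 0.14 (SE, adjusted p = 0.378). Slc4a5 had 11.2, 19.1, 13.0 and 13.6 TPM in LLC cerebellum, against 13.7, 11.3, 11.7 and 13.5 TPM in control cerebellum. Folr1 had 9.76, 19.5, 15.1 and 20.1 TPM in LLC 1 to 4, against 18.9, 16.3, 17.4 and 19.6 TPM in control 14 to 17, a difference of -0.20 ± 0.19 (adjusted p = 0.539), with LLC 1 and LLC 3 below every control and LLC 4 above. Aqp1 lay between 9.86 and 18.9 TPM in LLC and between 11.3 and 15.5 TPM in control cerebellum, and Otx2 between 15.9 and 24.5 TPM in LLC and between 17.7 and 21.3 TPM in control cerebellum. Without LLC 2 the difference of Ttr was -0.03 instead of 0.17. The differences of the 9 members had a median of -0.03 beside -0.04 over all genes tested.

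Because the members moved together from library to library, each was also set against Ttr of the same library. Per 1000 TPM of Ttr, Enpp2 had 146, 135, 182 and 182 TPM in LLC cerebellum, against 222, 231, 239 and 235 TPM in control cerebellum. Prlr had 0.356, 0.297, 0.363 and 0.410 TPM per 1000 TPM of Ttr in LLC cerebellum, against 0.879, 0.903, 0.679 and 0.632 in control cerebellum. For both, and for Kl with 3.07, 2.93, 3.32 and 3.88 in LLC against 4.58, 5.13, 4.92 and 5.09 in control cerebellum, every LLC library lay below every control library. These were 3 of the 8 members with a ratio, where 3.67% of all genes tested lay wholly below and 0.698% wholly above on this measure. A gene that does not follow Ttr takes the swings of Ttr between libraries into its ratio, which makes groups overlap. The share over all genes is therefore no like measure for plexus genes, and no excess can be read from it. Of the other choroid plexus genes 10 of 25 lay wholly below (Kcne2, Kcnj13, Sostdc1, Calml4, Cldn2, Col8a1, Msx1, Car12, 1500015O10Rik and Prr32) and 1, Wfikkn2, wholly above.

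A ratio moves with both of its terms, so it shows unequal change and not which gene changed. Ttr made up 85.7%, 86.4%, 82.6% and 82.7% of the summed TPM of the 9 genes in LLC cerebellum, against 80.1%, 79.4%, 78.9% and 79.1% in control cerebellum. With the mean level of the other choroid plexus genes as a covariate in the fit, differences are relative to that list. Of its 25 genes 19 had negative differences in LLC cerebellum without the covariate. Their list had a median of -0.18 there, beside -0.04 over all genes. With the covariate the cerebellar difference of Ttr was 0.36 ± 0.07 (SE, adjusted p = 0.0704, limma) and that of Clic6 0.35 ± 0.09 (adjusted p = 0.109). That of Kl was -0.25 ± 0.10 (adjusted p = 0.214) and that of Enpp2 -0.24 ± 0.08 (adjusted p = 0.164). Limma then called 0 of the 9 in each of the 3 regions. Of all genes it called 0.246% in cerebellum, 6.56% in neocortex and 2.10% in hippocampus. Beside these values stand other differences of the LLC libraries: erythrocyte genes summed to 4412 to 15767 TPM in LLC and 1368 to 1780.5 TPM in control cerebellum, and oligodendrocyte genes to 5393 TPM in LLC 1 and 2668 to 3691 TPM in LLC 2 to 4, against 3378 to 4173 TPM in control cerebellum. Their part in the ratios was not tested.

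In neocortex the same ratios overlapped for all 8 members. Prlr had 1.32, 2.16, 1.04 and 2.38 TPM per 1000 TPM of Ttr in LLC neocortex, against 2.75, 1.65, 1.42 and 1.60 in control neocortex. Enpp2 had 226, 431, 209 and 439 in LLC neocortex, against 916, 312, 282 and 352 in control neocortex, where control 14, with the least Ttr, stood apart. Of the other choroid plexus genes 2 of 24 lay wholly below, Kcne2 and 1500015O10Rik, and 0 wholly above, with 0.0138% of all genes wholly below and 0.0967% wholly above. Kcne2, a potassium channel subunit of the apical membrane, had 2.23 to 3.82 TPM per 1000 TPM of Ttr in LLC and 4.28 to 4.72 in control neocortex, and 3.24 to 4.78 in LLC and 5.88 to 6.76 in control cerebellum. In hippocampus the ratios overlapped for all 8, with 0.0137% of all genes wholly below and 0.00683% wholly above. The limit given for such shares in cerebellum holds in both regions.

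**Figure D2:**
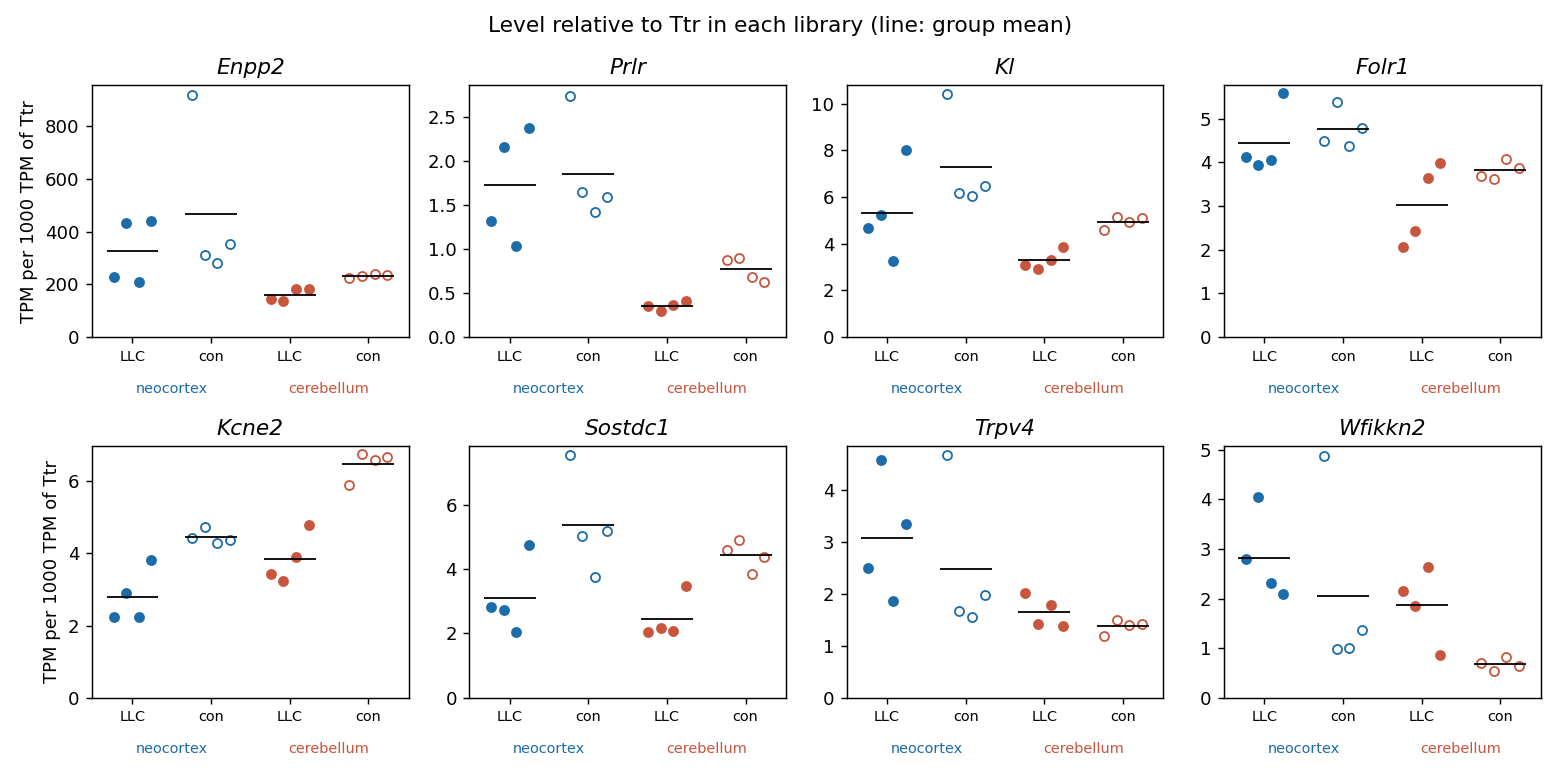
TPM per 1000 TPM of Ttr (linear axes from 0) in neocortex and cerebellum; filled points are LLC libraries, open points control libraries, lines group means. In cerebellum the LLC libraries of Enpp2, Prlr, Kl, Kcne2 and Sostdc1 lie below all controls and those of Wfikkn2 above, while in neocortex only the LLC points of Kcne2 among the 8 genes drawn lie clear of the controls.

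Wfikkn2 was the 1 gene of the other choroid plexus list that passed the test. It encodes a secreted protein that binds myostatin and GDF11, and lies on chromosome 11 from 94235956 to 94246005 (mm10). Wfikkn2 had 10.1, 14.8, 10.96 and 4.39 TPM in LLC cerebellum, against 3.60, 2.46, 3.55 and 3.24 TPM in control cerebellum, with every LLC library above every control. The difference was 1.30 ± 0.28 (SE, adjusted p = 0.0462, limma). The call was lost without any one of LLC 2 (adjusted p = 0.106), LLC 3 (0.0989), control 14 (0.0896), control 15 (0.160), control 16 (0.139) or control 17 (0.110), with no filter on low values (0.0848) and with the choroid plexus gene list (0.0704) or the 9 members (0.0754) as a covariate. The covariate from that list holds Wfikkn2 itself. Without LLC 4 the adjusted p was 0.00102. Of the fits that left out 1 library, that one gave the most genes called, in cerebellum and in neocortex. A low adjusted p without LLC 4 is therefore not particular to Wfikkn2. In neocortex Wfikkn2 had 5.75, 2.53, 5.21 and 1.501 TPM in LLC libraries, against 1.29, 1.74, 1.73 and 1.502 TPM in controls, a difference of 0.78 ± 0.27 (adjusted p = 0.0955), and 1.05 without LLC 4 (adjusted p = 0.00425). Its difference in cerebellum minus that in neocortex was 0.53 ± 0.60 (adjusted p = 0.767), from the fit of all libraries whose error includes the hippocampal spread. In hippocampus LLC 2 had 9.65 TPM and the other LLC libraries 0.846 to 0.899 TPM, against 0.460 to 1.33 TPM in controls, also in control 14 and control 17, which had 2506 and 3968 TPM of Ttr.

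Counted over the list, limma called 0 of 24 other choroid plexus genes in neocortex (2 at an unadjusted p under 0.05), 1 of 25 in cerebellum (9 unadjusted) and 0 of 24 in hippocampus (0 unadjusted). Of all genes 8.54%, 2.50% and 3.61% were called in these regions, and 29.8%, 24.4% and 22.2% had an unadjusted p under 0.05. Their median difference was -0.02, -0.18 and -0.35 in these regions, beside 0.01, -0.04 and 0.01 over all genes. The 9 cerebellar genes at an unadjusted p under 0.05 included Kcne2 (-0.58 ± 0.15, adjusted p = 0.0718), Kcnj13 (-0.47 ± 0.14, adjusted p = 0.0911), a potassium channel, and Sostdc1 (-0.68 ± 0.22, adjusted p = 0.111), a secreted antagonist of BMP and WNT signals. They did not all fall: Wfikkn2, Trpv4 (0.37 ± 0.14, adjusted p = 0.146) and Ace (0.31 ± 0.11, adjusted p = 0.140) were higher in LLC cerebellum, and the rest lower. The mean of the 9 members was also used as a covariate, a setting chosen after the data had been seen. Limma then called 3 of 24 on the list in neocortex and 5.96% of all genes. The covariate takes up spread in genes that follow the members, so that share is no like measure for this list. Relative to the members, Kcne2 (-0.47 ± 0.10, adjusted p = 0.0332) and Sostdc1 (-0.51 ± 0.12, adjusted p = 0.0377) were lower. Trpv4 (0.45 ± 0.09, adjusted p = 0.0303), a calcium channel opened by osmotic change, was higher. Without the covariate the differences of Kcne2, Sostdc1 and Trpv4 were -0.37 ± 0.42, -0.42 ± 0.36 and 0.50 ± 0.22 (SE, adjusted p = 0.592, 0.465 and 0.152, limma). With that covariate 0 were called in cerebellum and 0 in hippocampus, where 0.431% and 1.98% of all genes were called.

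**Figure D3:**
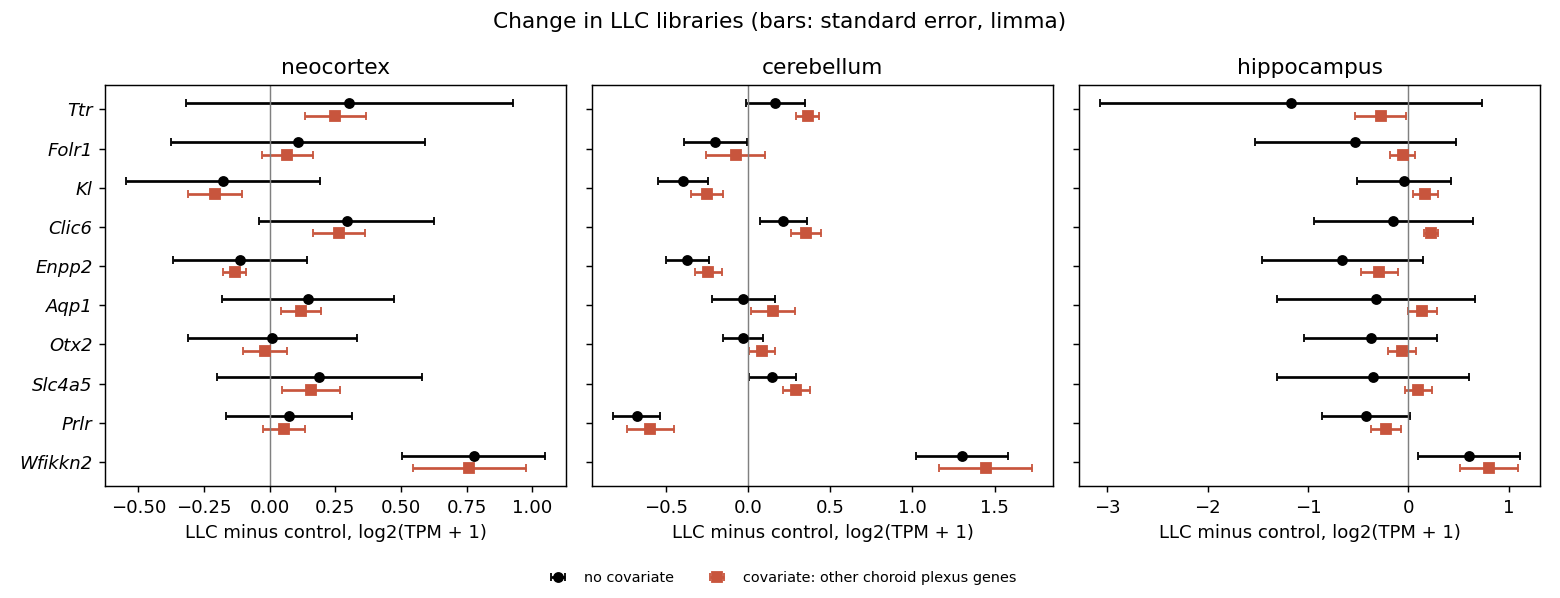
LLC minus control difference on the log2(TPM + 1) scale for the 9 members and Wfikkn2 in each region, with bars of 1 standard error. Circles are without a covariate and squares with the other choroid plexus genes as a covariate, which include Wfikkn2 itself. The x axes differ: hippocampal bars reach 1.90 for Ttr, cerebellar ones at most 0.28, and Prlr lies at -0.68 and Wfikkn2 at 1.30 in cerebellum.

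The levels differed between regions without the tumour too. All 9 members were higher in control cerebellum than in control neocortex, where 61.0% of all genes were called higher and 24.4% lower, with a median difference of 0.31 over all genes and of 1.68 over the members. Otx2 averaged 19.4 ± 1.51 TPM in the cerebellum of controls and 2.32 ± 1.23 TPM in their neocortex (SD, n = 4 per region), a difference of 2.71 ± 0.25 (SE, adjusted p = 1.346e-06). Ttr averaged 4741 ± 421 TPM in control cerebellum and 1217 ± 705 TPM in control neocortex, a difference of 2.28 ± 0.49 (adjusted p = 0.00112). With Prlr the difference was 0.70 ± 0.22 (adjusted p = 0.0123), the smallest of the 9. Scaling by median ratios brought the median of all genes to 0.01 and called 8 of the 9, all but Prlr (0.47 ± 0.23, adjusted p = 0.0779); Ttr then differed by 1.95 ± 0.49 and Otx2 by 2.45 ± 0.26. That scaling also moved the share of higher genes among those called to 50.4%, against 71.4% without it.

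Relative to Ttr, members were not carried in the same proportion by both regions. Otx2 had 3.71 to 4.35 TPM per 1000 TPM of Ttr in control cerebellum and 1.71 to 2.38 in control neocortex, without overlap. It was the 1 member of 8 that lay wholly above in cerebellum, where 1.03% of all genes did; Kcne2 and Lmx1a, a transcription factor, did so among 25 other choroid plexus genes. Prlr had 0.632 to 0.903 TPM per 1000 TPM of Ttr in control cerebellum and 1.42 to 2.75 in control neocortex. It was among 6 of 8 members that lay wholly below, as did 85.4% of all genes. Ttr itself was higher in control cerebellum, so the shares over all genes carry its difference. In the 3 hippocampal libraries with much Ttr, Otx2 had 1.54 per 1000 TPM of Ttr in LLC 2, 1.77 in control 14 and 2.11 in control 17, within or just under the range of control neocortex. Slc4a5 had 2.20, 1.93 and 2.07 in these 3 libraries, beside 2.51 to 2.74 in control cerebellum and 2.01 to 2.57 in control neocortex.

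Control hippocampus had less of 8 of the 9 members than control cerebellum by limma, all but Prlr, where 55.3% of all genes were called lower and 26.6% higher. Ttr differed by -3.46 ± 1.27 (SE, adjusted p = 0.0260), Otx2 by -2.35 ± 0.39 (adjusted p = 1.884e-04) and Kl by -0.87 ± 0.33 (adjusted p = 0.0300). The count fell to 4 without hippocampus control 15 or 16, the libraries with least plexus RNA, and to 5 without cerebellum control 17 or with no filter on low values; Prlr itself was called without hippocampus control 17 (-0.63, adjusted p = 0.0456). Median-ratio scaling called 6, with the median of all genes at -0.02 in place of -0.23 and 49.4% of called genes higher in place of 32.4%. Between control hippocampus and control neocortex limma called 0 of the 9, with 0 at an unadjusted p under 0.05, where 40.5% of all genes were called higher and 21.3% lower.

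Ordered by mean TPM, Ttr stood at 5476 in LLC cerebellum, 4741 in control cerebellum, 1869 in LLC hippocampus, 1649.5 in control hippocampus, 1415 in LLC neocortex and 1217 in control neocortex. The hippocampal means lie between values of 38.4 and 7289.6 and describe none of the libraries, and the neighbours below the cerebellum in this order do not differ beyond their spread. Prlr had another order: 3.67 TPM in control cerebellum, 3.10 in control hippocampus, 2.09 in LLC hippocampus, 2.03 in LLC neocortex, 1.97 in control neocortex and 1.91 in LLC cerebellum. The lowest 4 of these Prlr means lie within each other's spread and give no order.

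**Figure D4:**
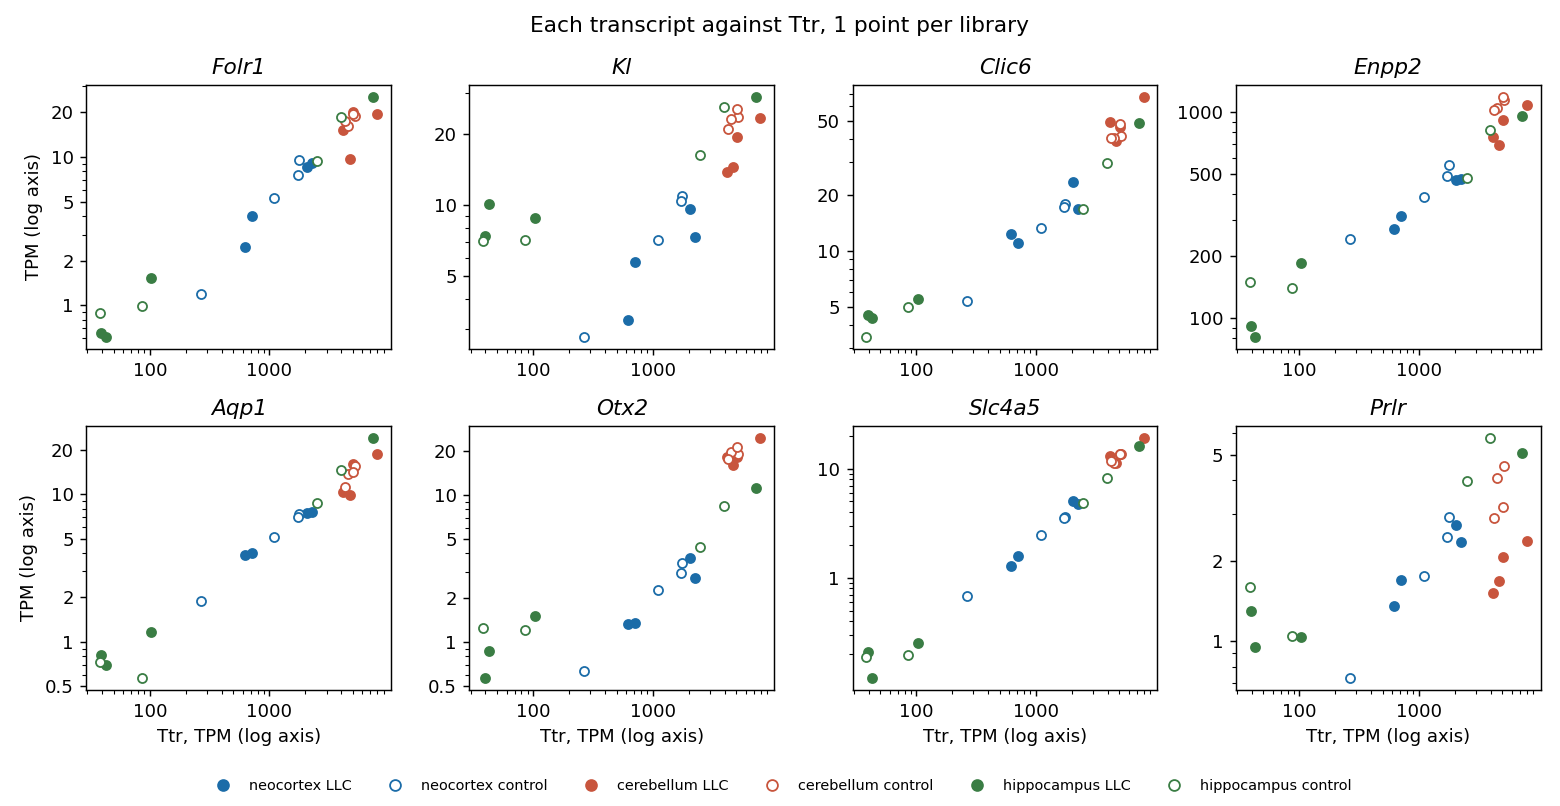
Each of 8 transcripts against Ttr (TPM, log axes), 1 point per library. Slc4a5 stays near 1 line over all regions, at 1.93 to 5.34 TPM per 1000 TPM of Ttr. Relative to Ttr, Aqp1 lies lower in control cerebellum (2.65 to 3.05 per 1000 TPM) than in control neocortex (4.08 to 7.18). In TPM, the cerebellar points of Otx2 lie above all others. Relative to Ttr, hippocampal libraries with little Ttr (14.1 to 32.6 per 1000 TPM) lie above the cerebellar ones (3.07 to 4.39). LLC cerebellum points of Prlr, between 1.51 and 2.37 TPM, lie under those of control cerebellum between 2.90 and 4.52 TPM.

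Genes that work with the members were counted on lists by role. Of 14 ion and water transport genes limma called 2 lower in neocortex, 1 lower in cerebellum and 0 in hippocampus (2 unadjusted). Of all genes 2.95%, 1.27% and 1.03% were called lower in these regions. Aqp4, the water channel of astrocytes and ependyma, fell in cerebellum to 123, 126, 151 and 221 TPM in LLC libraries, against 282, 304, 269 and 256 TPM in controls (-0.87 ± 0.16, SE, adjusted p = 0.0344). It also fell in neocortex (-0.65 ± 0.15, adjusted p = 0.0344), as did Car2, a carbonic anhydrase of oligodendrocytes and choroid plexus (-0.50 ± 0.09, adjusted p = 0.0181). Aqp1, the water channel of the plexus itself, differed by -0.03 ± 0.19 in cerebellum (adjusted p = 0.938).

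Of 8 genes of prolactin receptor signalling, Socs3 was called in neocortex and cerebellum and 0 in hippocampus (2 unadjusted). Of all genes 5.59%, 1.23% and 2.58% were called higher in these regions. Socs3, an inhibitor of cytokine receptors that STAT factors induce, rose to 3.21, 3.00, 3.05 and 3.60 TPM in LLC cerebellum, against 2.34, 1.73, 1.59 and 1.34 TPM in control cerebellum (0.63 ± 0.12, SE, adjusted p = 0.0383), and rose in neocortex by 0.48 ± 0.09 (adjusted p = 0.0198). Ghr, the growth hormone receptor, a relative of Prlr, had a cerebellar mean of 2.85 ± 0.618 TPM over LLC libraries and 2.87 ± 0.192 TPM over controls (SD, n = 4 in each group).

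Partners in hormone, folate and lipid signalling were counted next, against shares of all genes called of 8.54% (neocortex), 2.50% (cerebellum) and 3.61% (hippocampus). Among 10 genes of thyroid hormone and retinol carriage, limma called 2 lower and 1 higher in neocortex, 0 of 8 in cerebellum (2 unadjusted) and 0 of 10 in hippocampus (4 unadjusted). In neocortex Dio2, which makes active thyroid hormone in astrocytes, fell by 0.95 ± 0.18 (adjusted p = 0.0176), and Rbp4, the retinol carrier that binds transthyretin, fell by 0.33 ± 0.08 (adjusted p = 0.0342), while Thra, a thyroid hormone receptor, rose by 0.29 ± 0.07 (adjusted p = 0.0380). Of 11 folate genes, Slc19a1, the reduced folate carrier, rose in neocortex by 0.23 ± 0.06 (adjusted p = 0.0346) and Fpgs, which traps folate in cells, in cerebellum by 0.42 ± 0.09 (adjusted p = 0.0494); 0 of 10 were called in hippocampus (2 unadjusted). Of the klotho and FGF genes, Fgfr2 fell in neocortex (-0.27 ± 0.06, adjusted p = 0.0271), and 0 were called in cerebellum (3 unadjusted) or hippocampus (0 unadjusted). Of the lysophosphatidic acid receptors and phosphatases, and of the partners of Otx2, limma called 0 in all 3 regions; unadjusted, 2, 2 and 0 of the first list and 1, 1 and 1 of the second were under 0.05 in neocortex, cerebellum and hippocampus.

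Lists of other cell types, which share the blocks with the plexus, were counted in the same way. Of endothelial genes 8 of 10 rose in neocortex, 3 of 10 in cerebellum and 8 of 10 in hippocampus, where 5.59%, 1.23% and 2.58% of all genes were called higher, among them Vwf, made in vessel walls (2.04 ± 0.22 in cerebellum, SE, adjusted p = 0.00821). Of erythrocyte genes 7 of 10 rose in cerebellum and 5 of 8 in hippocampus. Of ependymal genes 1 of 11, Ccdc153, fell in neocortex, and 0 of 11 were called in cerebellum (2 unadjusted) and 0 of 12 in hippocampus (2 unadjusted). Of meningeal fibroblast genes Lum, a collagen-binding proteoglycan, fell in cerebellum (-1.03 ± 0.12, adjusted p = 0.0122) and hippocampus (-0.54 ± 0.09, adjusted p = 0.0221), and 0 of 12 were called in neocortex (1 unadjusted). Thalamus and habenula genes gave 1 call, Nwd2, lower in hippocampus, and the 1 tested gene of the pineal and pituitary list none. Beside these falls, 2.95%, 1.27% and 1.03% of all genes were called lower in neocortex, cerebellum and hippocampus. The part of these cells in the values of the 9 members was not tested.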

How the data were processed

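Trizol-extracted RNA was converted to stranded TruSeq messenger RNA libraries and read on a NovaSeq, per the labels. TPM values of 47643 symbols in 24 libraries, computed and deposited by the authors, were the input. Per the submitters' processing notes the build was mm10; which aligner, counter, annotation and strand setting were used is not given in the sources used here. Because TPM has a fixed total, a rise of abundant transcripts lowers the rest, and depth and counting error are unknown.

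Groups came from the titles. Genes with a mean of at least 1 TPM over the libraries compared were tested with limma 3.58.1 in R 4.3.3 (lmFit, eBayes with a trend, two-sided) on log2(TPM + 1), with Benjamini-Hochberg adjustment at 0.05. Differences of effects came from 1 fit of all libraries. The fits were tested on simulated data. Ratios, ranges and figures used Python 3.11.15 and matplotlib 3.10.9. Symbols were matched to GENCODE M21. Deviations of control cerebellum and control neocortex libraries of the same title number correlated in all 4 pairs (r = 0.114 to 0.263). These numbers may therefore pair the libraries, though the labels name no shared animal. The values given are from the fit without a block, and the block changed no call of a member. In the other region pairs r ran from -0.0956 to 0.625 and was not over 0.1 throughout. For LLC 4 it was 0.456 to 0.625 in every region pair, so shared animals remain possible there too. The fits of all libraries took the libraries as independent, and with the title-number block they also called 0 members in the differences of effects.

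The members and gene lists were chosen with earlier results of these data known. Named were all 9 members, list genes past the threshold (at most 4 per list by p, for the marker lists examples of these), a few others by level, and the genes most like Ttr. Ghr, Kcnj13, Sostdc1, Trpv4, Kcne2 and Ace were named for their list and values. Alternatives were a pseudocount of 0.1, filters at 5 TPM or none, median-ratio scaling, 1 fit of all libraries, number blocks, plexus covariates and leaving out each replicate. The result of 1 listed gene, and the neocortex count of its list, are not reported here.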

Additional observations from a re-analysis of the deposited data

Results flagged for a closer look

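In the LLC hippocampus replicate 2 stood far above the other 3 libraries, with a gap that took most of the range of the group (Dixon's test at the 95% level), for all 9 members and for Wfikkn2. It had 7289.6 TPM of Ttr, 25.4 TPM of Folr1, 28.8 TPM of Kl, 48.8 TPM of Clic6, 953 TPM of Enpp2, 24.2 TPM of Aqp1, 11.2 TPM of Otx2, 16.04 TPM of Slc4a5, 5.07 TPM of Prlr and 9.65 TPM of Wfikkn2. These were 10 of the 60 groups of 4 examined; chance marks about 1 in 20, and the 10 come from 1 library and from genes that move together, so they are not 10 separate observations. The cause was not tested.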

How the results depend on the processing

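Of 1074 values under an alternative, 895 kept their direction and side of the threshold, and those that turned or moved most are given here; the lost calls of Prlr and Wfikkn2 stand beside their values. Depth is unknown, so the counting error of Prlr, at 1.51 to 4.52 TPM in cerebellum, cannot be given. The causes were not tested.

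Counts of genes called in LLC against control with no filter were 577 in neocortex, 71 in cerebellum and 220 in hippocampus; with all 24 libraries in 1 fit 784 in neocortex and 3012 in cerebellum; with the description number as replicate block 641, 724 and 179 in the 3 regions, which changed no call of a member (Prlr in cerebellum -0.68, adjusted p = 0.0360); with median-ratio scaling 654 in cerebellum; with the other choroid plexus genes as covariate 36 in cerebellum and 307 in hippocampus; and with the 9 members as covariate, chosen after seeing the data, 63 in cerebellum and 290 in hippocampus. For differences of effects, no filter gave 51 (cerebellum minus neocortex), 2 (hippocampus minus neocortex) and 22 (hippocampus minus cerebellum), and the title number as replicate block 205 and 40 for the first and last. The title-number block called 9 members in control cerebellum over neocortex, as without it. Members called in cerebellum were 0 with no filter, with a filter at 5 TPM (where Prlr is not tested), with all libraries in 1 fit and with the covariate, and for control hippocampus over cerebellum 5 with no filter. Deviations of same-numbered LLC and control libraries correlated at -0.256 to 0.470 and were not over 0.1 in every pair of any region, so these numbers were not taken as pairs.

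Signs turned with median-ratio scaling for Otx2 in neocortex (-0.0042) and for Aqp1 (0.0037) and Otx2 (0.0028) in cerebellum, and with the covariate of other choroid plexus genes for Otx2 in neocortex (-0.0175), Aqp1 (0.15) and Otx2 (0.0842) in cerebellum, and Kl (0.17), Clic6 (0.22), Aqp1 (0.14) and Slc4a5 (0.10) in hippocampus.

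Leaving out 1 library at a time gave 187 to 3834 genes called in neocortex, 6 to 1570 in cerebellum and 57 to 1667 in hippocampus, with the highest count in each region without LLC replicate 4, and 4 to 287 for cerebellum minus neocortex and 1 to 220 for hippocampus minus cerebellum, 0 to 1 members in cerebellum and 4 to 9 in control hippocampus over cerebellum. Neocortex differences then ran from -0.32 to 0.62 for Ttr, -0.37 to 0.40 for Folr1, -0.54 to 0.068 for Kl, -0.061 to 0.46 for Clic6, -0.35 to 0.044 for Enpp2, -0.19 to 0.31 for Aqp1, -0.30 to 0.18 for Otx2, -0.14 to 0.43 for Slc4a5 and -0.17 to 0.23 for Prlr. Cerebellar ones ran from -0.031 to 0.28 for Ttr, -0.32 to 0.0068 for Folr1, -0.19 to 0.10 for Aqp1 and -0.15 to 0.047 for Otx2. Hippocampal ones ran from -1.48 to 0.10 for Folr1, -0.45 to 0.30 for Kl, -0.93 to 0.34 for Clic6, -1.26 to 0.28 for Aqp1, -1.04 to 0.036 for Otx2 and -1.31 to 0.19 for Slc4a5. Control hippocampus over neocortex ran from -0.80 to 0.32 for Folr1, -0.77 to 0.16 for Clic6, -0.98 to 0.12 for Aqp1, -0.049 to 0.65 for Otx2 and -0.71 to 0.28 for Slc4a5. Hippocampus minus neocortex ran from -0.34 to 0.25 for Wfikkn2, and hippocampus minus cerebellum from -0.068 to 0.60 for Prlr. Without LLC replicate 2 of the hippocampus Wfikkn2 fell under the filter and gave no value.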
